A study of Homo sapiens with 4 samples.

Results

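Coagulation and complement genes were followed in 2 human hepatocellular carcinoma (HCC) lines treated with arsenic trioxide (ATO). The set comprised 45 listed genes of the clotting cascade, its inhibitors, fibrinolysis and the complement system, out of 19775 genes read on the arrays. The gene list used no measured value, but was drawn up with earlier results of these data known. The probe set of each gene was picked from the measured values. It was the one with the highest mean intensity over the profiles among those that name that gene alone. By this rule 44 of the 45 genes were measured, and VTN, which encodes vitronectin, had no such probe set. RNA came from the established lines Huh7 and Hep3B and was read on Affymetrix U133 Plus 2.0 arrays, where several short probes per transcript form a probe set. In each line, ATO cells received 3 μM for 7 days, and negative control cells received DMSO. There was 1 profile per line and treatment, 4 in all, so a ratio within a line has no replicate and no error of its own.

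Most proteins of the clotting cascade and of the complement system are made by hepatocytes and secreted into the plasma. Clotting factors are mainly serine proteases that activate each other in sequence until thrombin cleaves fibrinogen, while serpins and protein C limit the cascade and plasmin dissolves the clot. Complement works in the same manner, since the proteases C1r, C1s and the MASPs start a cascade through C3 and C5 to a membrane pore that holds C6 to C9, and regulators such as factor I, C4b-binding protein, CD46, CD55 and CD59 restrain it on host cells.

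The deposited values are intensities on a linear scale, and profile medians lay between 15.8 and 16.3. The median probe set over all profiles was at 17.3, and this level served to call a probe set dim, since no detection call was used. Of the 44 measured genes, 38 had a mean above this level. The other 6, F9, F13B, PLG, C9, PLAU and PLAT, were below it in all 4 profiles, with values between 3.44 and 12.03, and their ratios are not interpreted further. Among all genes, 35.6% had a mean below it. The median of the mean intensities was 160 over the members and 50.5 over all genes. Poly-A control transcripts, which are added to the RNA before labeling, had median log2 ratios for ATO over DMSO of -0.24 (Huh7) and -0.23 (Hep3B), and hybridization controls of 0.07 and 0.10. Their part in the ratios was not tested. Hepatocyte markers were present in both lines at different levels. Albumin (ALB) was at 358 with ATO and 155 with DMSO in Huh7, and at 10730 with ATO and 12803 with DMSO in Hep3B, and AFP at 62.1 with ATO and 91.8 with DMSO in Huh7, and at 1646 with ATO and 3567 with DMSO in Hep3B. SERPINA1 was between 6689 and 12710 in every profile. The summed intensity of 5 endothelial markers was between 40.9 and 46.2, and that of 4 leukocyte markers between 43.6 and 58.7. For 5 stellate and fibroblast markers the sum was between 136 and 161, and for 4 platelet markers between 81.5 and 112. Of these, COL1A1, DES, PDGFRB, ITGA2B and GP9 were above the median probe set in every profile. In such bulk RNA, fewer cells that express a gene and less RNA per cell cannot be told apart.

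**Figure D1:**
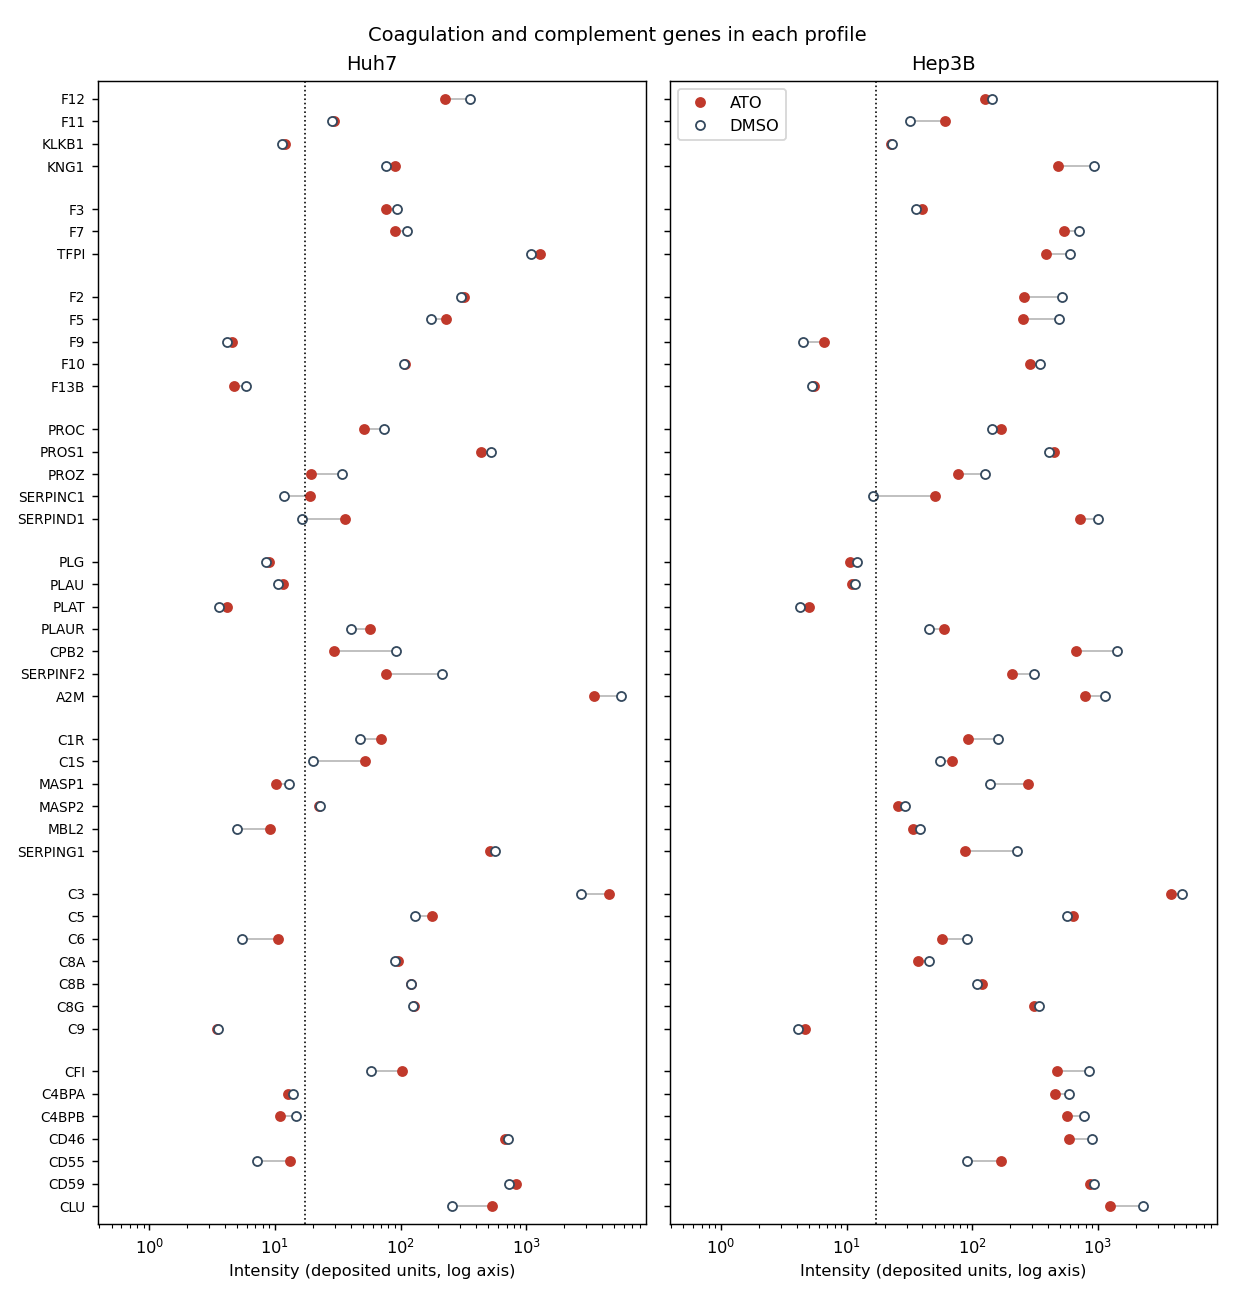
Intensity of the 44 measured coagulation and complement genes in each profile, on a log axis, with ATO as filled and DMSO as open points, Huh7 on the left and Hep3B on the right, and genes grouped by role. The dotted line is the median probe set at 17.3; CPB2, SERPINF2 and PROZ lie to the left of their DMSO points in both panels, and the C4BPA, C4BPB, CD55, C6, MBL2, MASP1 and KLKB1 points are left of the dotted line in Huh7 alone.

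With ATO, complement genes that passed a ratio threshold in Huh7 were all higher, while most of those that passed in Hep3B were lower. A ratio of ATO over DMSO above 1.5 or below 0.67 was counted. In Huh7, 9 of 44 members were above 1.5, against 3.21% of all genes, and 5 were below 0.67, against 3.25% of all genes. In Hep3B, 4 members were above 1.5, where 5.04% of all genes were, and 13 were below 0.67, where 4.02% of all genes were. By function, 7 of 20 complement genes were above and 0 below in Huh7, and 2 were above and 6 below in Hep3B. Of the 24 coagulation and fibrinolysis genes, 2 were above and 5 below in Huh7, and 2 above and 7 below in Hep3B. The median log2 ratio of the members was 0.07 in Huh7, with 0.01 over all genes, and -0.20 in Hep3B, with 0.04 over all genes. Of the 9 higher genes in Huh7, C6, CD55 and MBL2 were dim with ATO and with DMSO, and SERPINC1 and SERPIND1 were dim with DMSO. C1S, C3, CFI and CLU were above the median probe set in both profiles, as were all 5 lower genes in Huh7 and all 13 in Hep3B.

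In both lines together, SERPINC1 and CD55 were above 1.5, so 2 members passed, where 0.804% of all genes did. CPB2, SERPINF2 and PROZ were below 0.67 in both lines, which is 3 members, where 0.587% of all genes passed. CLU, CFI and C6 were above 1.5 in Huh7 and below 0.67 in Hep3B, again 3 members, where 0.172% of all genes were. The reverse pattern was met by 0 members and by 0.152% of all genes.

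**Figure D2:**
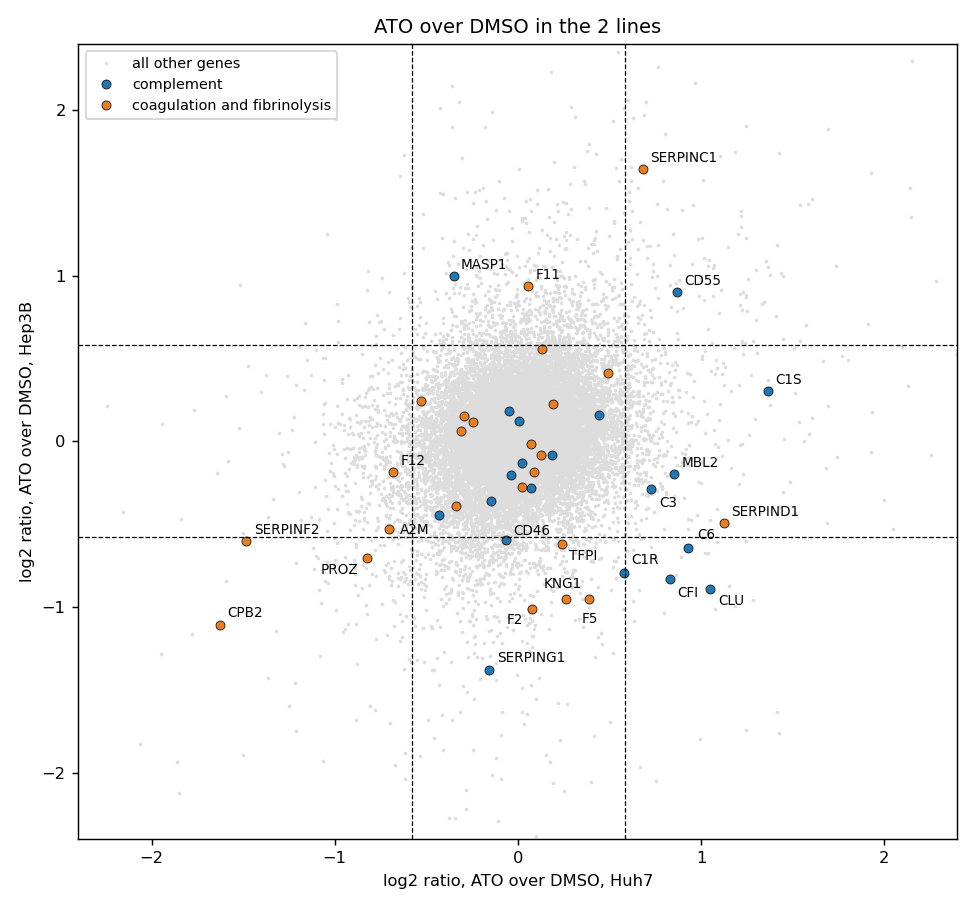
Log2 ratio of ATO over DMSO in Huh7 on the x axis and in Hep3B on the y axis, with complement genes in blue, coagulation and fibrinolysis genes in orange and all other genes in grey; dashed lines mark ratios of 1.5 and 0.67, and 36 genes beyond 2.4 on either axis are not drawn. CPB2, SERPINF2 and PROZ lie in the lower left, SERPINC1 and CD55 in the upper right, and CLU, CFI and C6 in the lower right.

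Among genes that start the intrinsic pathway, KNG1, which encodes the kininogen that carries prekallikrein, was at 90.9 with ATO and 75.9 with DMSO in Huh7, and at 479 with ATO and 925 with DMSO in Hep3B. Both Hep3B profiles were above both Huh7 profiles, and the ratio was 1.20 in Huh7 and 0.517 in Hep3B. F11, the gene of factor XI, was at 29.6 with ATO and 28.5 with DMSO in Huh7, and at 61.1 with ATO and 31.9 with DMSO in Hep3B. Its ATO profile in Hep3B stood above the other 3, which were close to each other, with a Huh7 ratio of 1.04 and a Hep3B ratio of 1.91. KLKB1, the gene of plasma prekallikrein, lies 7.72 kb from F11 on chromosome 4, and had Huh7 and Hep3B ratios of 1.05 and 0.991. F12, which encodes factor XII, had Huh7 and Hep3B ratios of 0.624 and 0.879.

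Of the extrinsic start, F3 encodes tissue factor, the membrane receptor of factor VII, and had Huh7 and Hep3B ratios of 0.817 and 1.11. F7 was at 89.7 with ATO and 113 with DMSO in Huh7, and at 534 with ATO and 701 with DMSO in Hep3B. The ATO profile was the lower of each line, with a Huh7 ratio of 0.791 and a Hep3B ratio of 0.762, neither past the threshold. TFPI, the gene of the inhibitor of tissue factor and factor VIIa, was at 1292 with ATO and 1095 with DMSO in Huh7, and at 389 with ATO and 597 with DMSO in Hep3B, so the ratio was 1.18 in Huh7 and 0.652 in Hep3B.

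In the common pathway, the genes of prothrombin and factor V were lower with ATO in Hep3B and not past the threshold in Huh7. F2, which encodes prothrombin, was at 317 with ATO and 301 with DMSO in Huh7, and at 256 with ATO and 517 with DMSO in Hep3B. F5, which encodes the cofactor of factor Xa, was at 230 with ATO and 176 with DMSO in Huh7, and at 255 with ATO and 493 with DMSO in Hep3B. For both genes the DMSO profile of Hep3B was the highest of the 4, and the ratio of F2 was 1.05 in Huh7 and 0.495 in Hep3B, and that of F5 was 1.31 in Huh7 and 0.517 in Hep3B. F10, the gene of factor X, had Huh7 and Hep3B ratios of 1.02 and 0.825. F7, F10 and PROZ are neighbours on chromosome 13, with 2.11 kb between F7 and F10 and 9.12 kb between F10 and PROZ. The 3 genes had ratios between 0.565 and 1.02 in Huh7 and between 0.613 and 0.825 in Hep3B.

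Anticoagulant genes differed in direction. SERPINC1 encodes antithrombin, the main serpin against thrombin and factor Xa, and was at 19.0 with ATO and 11.9 with DMSO in Huh7, and at 50.8 with ATO and 16.3 with DMSO in Hep3B. Its ATO profile was the higher of each line, with a Huh7 ratio of 1.60 and a Hep3B ratio of 3.13, but both DMSO profiles were dim. SERPIND1, which encodes heparin cofactor II, a serpin that acts on thrombin, was at 36.1 with ATO and 16.5 with DMSO in Huh7, and at 718 with ATO and 1010 with DMSO in Hep3B. The ratios were 2.18 in Huh7 and 0.711 in Hep3B. PROZ encodes protein Z, the cofactor of a serpin that inhibits factor Xa, and was at 19.4 with ATO and 34.4 with DMSO in Huh7, and at 77.4 with ATO and 126 with DMSO in Hep3B. It was lower with ATO in both lines, with a Huh7 ratio of 0.565 and a Hep3B ratio of 0.613. PROC, the gene of protein C, had Huh7 and Hep3B ratios of 0.694 and 1.18, and PROS1, the gene of its cofactor protein S, 0.842 in Huh7 and 1.08 in Hep3B. The 7 genes of vitamin K-dependent proteins, F2, F7, F9, F10, PROC, PROS1 and PROZ, had no member above 1.5 in either line (3.21% of all genes in Huh7 and 5.04% in Hep3B), 1 below 0.67 in Huh7 (3.25%) and 2 in Hep3B (4.02%). F9 was dim throughout.

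The gene with the lowest ratio of all members in Huh7 was CPB2, which encodes the carboxypeptidase that removes plasmin binding sites from fibrin and thereby slows fibrinolysis. CPB2 was at 29.6 with ATO and 91.4 with DMSO in Huh7, and at 664 with ATO and 1431 with DMSO in Hep3B. The ATO profile was the lower of each line by a Huh7 ratio of 0.324 and a Hep3B ratio of 0.464, while both Hep3B profiles were above both Huh7 profiles. SERPINF2, which encodes alpha-2-antiplasmin, the serpin that inactivates plasmin, was at 76.6 with ATO and 214 with DMSO in Huh7, and at 206 with ATO and 312 with DMSO in Hep3B. The ratio was 0.358 in Huh7 and 0.659, just below the threshold, in Hep3B. A2M, the gene of the broad protease inhibitor alpha-2-macroglobulin, was at 3472 with ATO and 5663 with DMSO in Huh7, and at 793 with ATO and 1144 with DMSO in Hep3B. It was lower with ATO in both lines, at a ratio of 0.613 in Huh7, past the threshold, and 0.694 in Hep3B, not past it. PLAUR, the receptor of urokinase, was at 56.8 with ATO and 40.4 with DMSO in Huh7, and at 59.9 with ATO and 45.01 with DMSO in Hep3B. Both ATO profiles were above both DMSO profiles, with a Huh7 ratio of 1.41 and a Hep3B ratio of 1.33 that did not pass 1.5.

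The sequences before the start sites of CPB2 and PROZ are shown because these genes were lower with ATO in both lines. They are from RefSeq on GRCh38.p14, 120 bases up to the base before the start, 5′ to 3′ on the strand of the gene, at chr13:46105034-46105153 on the minus strand for CPB2 and chr13:113158528-113158647 on the plus strand for PROZ. Capitals mark a C/EBP match, searched as TTGCNNAA, at -42 to -35 in CPB2, and an HNF4 match, searched as CAAAGTCCA, at -34 to -26 in PROZ. Both matches are on the opposite strand, so the capitals show the reverse complement of the letters searched.
CPB2: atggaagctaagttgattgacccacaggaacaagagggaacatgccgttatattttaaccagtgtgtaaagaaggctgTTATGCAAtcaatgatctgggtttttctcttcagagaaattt
PROZ: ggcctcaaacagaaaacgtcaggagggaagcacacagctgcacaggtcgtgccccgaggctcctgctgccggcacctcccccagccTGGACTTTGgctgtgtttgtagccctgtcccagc

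In the 250 bases before the start, on either strand, the C/EBP letters were found in 8 of 36 members with a RefSeq entry, or 22.2%, where 9.13% of 27305 promoters of all genes held them. The HNF4 letters were found in 1 member, or 2.78%, where 0.289% of all promoters held them. The AP-1 letters TGANTCA were found in F3 and PLAUR, or 5.56%, where 6.57% of all promoters held them. The antioxidant response element, searched as TGACNNNGC, was in SERPIND1, F10 and PLAU, or 8.33%, where 11.1% of all promoters held it. TATAAA was in F3 and F13B, or 5.56%, and in 11.2% of all promoters. A match describes letters only. The entries of SERPINC1, SERPINF2, SERPING1, A2M, C1S, C3, C8G, CLU and PLAT were not used here. For KLKB1 and PLAU the start site used lay inside the gene as listed, not at its first base. The C/EBP match counted for KLKB1 and the match in PLAU come from these windows.

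Among genes that start complement, C1R and C1S, which encode the proteases of the C1 complex, lie 9.19 kb apart on chromosome 12. C1S was at 52.1 with ATO and 20.2 with DMSO in Huh7, and at 68.7 with ATO and 55.7 with DMSO in Hep3B. C1R was at 70.5 with ATO and 47.1 with DMSO in Huh7, and at 92.1 with ATO and 160 with DMSO in Hep3B. Both genes were higher with ATO in Huh7, with ratios of 2.58 for C1S and 1.495, just under the threshold, for C1R. In Hep3B, C1S had a ratio of 1.23 and C1R of 0.575. SERPING1, which encodes the C1 inhibitor that inactivates both proteases, was at 511 with ATO and 569 with DMSO in Huh7, and at 87.8 with ATO and 228 with DMSO in Hep3B. Its ATO profile in Hep3B was the lowest of the 4, and its ratio was 0.898 in Huh7 and 0.384, the lowest of all measured members, in Hep3B. MBL2, the mannose-binding lectin, was at 9.06 with ATO and 5.02 with DMSO in Huh7, and at 33.5 with ATO and 38.4 with DMSO in Hep3B, so both Huh7 profiles were dim. MASP1, the gene of a lectin pathway protease, was at 10.1 with ATO and 12.9 with DMSO in Huh7, and at 277 with ATO and 138 with DMSO in Hep3B. A second MASP1 probe set differed, with 42.7 for ATO and 32.6 for DMSO in Huh7 and 54.8 for ATO and 52.8 for DMSO in Hep3B. The higher level with ATO in Hep3B thus held for the brightest probe set, while the second had a ratio of 1.04. A dimmer MASP1 probe set, with a mean of 15.6, went the other way in Hep3B. It was at 18.6 with ATO and 32.0 with DMSO there, a ratio of 0.582. The remaining MASP1 probe sets, also with means below the median probe set, had Hep3B ratios of 1.12 and 0.856. MASP2, a second lectin pathway protease, had Huh7 and Hep3B ratios of 0.975 and 0.867.

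C3, on which all complement pathways converge, was at 4529 with ATO and 2740 with DMSO in Huh7, and at 3830 with ATO and 4669 with DMSO in Hep3B. It was the brightest member in Hep3B, and its ratio was 1.65 in Huh7 and 0.820 in Hep3B. C6, a component of the membrane pore, was at 10.5 with ATO and 5.51 with DMSO in Huh7, and at 57.7 with ATO and 90.3 with DMSO in Hep3B. The ratios were 1.90 in Huh7, from 2 dim profiles, and 0.640 in Hep3B. The other terminal genes above the median probe set, C5 and the C8 chain genes C8A, C8B and C8G, had ratios between 1.01 and 1.36 in Huh7 and between 0.822 and 1.12 in Hep3B, none past a threshold.

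Among complement regulators, CLU and CFI had opposite ratios in the lines and CD55 was higher in both. CLU encodes clusterin, a chaperone that also blocks the membrane pore, and was at 533 with ATO and 258 with DMSO in Huh7, and at 1239 with ATO and 2300 with DMSO in Hep3B. The ATO profile was the higher in Huh7 and the lower in Hep3B, at a Huh7 ratio of 2.07 and a Hep3B ratio of 0.539. CFI, the gene of factor I, the protease that cleaves C3b and C4b, was at 102 with ATO and 57.6 with DMSO in Huh7, and at 474 with ATO and 843 with DMSO in Hep3B. It followed the same order as CLU, with 1.78 in Huh7 and 0.562 in Hep3B. CD55, or decay-accelerating factor, which dissociates the C3 convertases, was at 13.2 with ATO and 7.23 with DMSO in Huh7, and at 171 with ATO and 91.2 with DMSO in Hep3B. The ATO profile was the higher of each line, at 1.82 in Huh7 and 1.87 in Hep3B, but both Huh7 profiles were dim. CD46, a membrane cofactor of factor I, was at 680 with ATO and 713 with DMSO in Huh7, and at 593 with ATO and 898 with DMSO in Hep3B, with a Huh7 ratio of 0.955 and a Hep3B ratio of 0.660. CD59, which keeps C9 out of the pore, was read by a probe set of the class that may also bind related transcripts, and had a Huh7 ratio of 1.14 and a Hep3B ratio of 0.946. C4BPA and C4BPB encode the chains of C4b-binding protein, another cofactor of factor I. Their ratios were 0.903 and 0.741 in Huh7, where both genes were dim, and 0.779 and 0.734 in Hep3B.

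Other probe sets bore differently on these calls. Of the members, 11 had further probe sets above the median probe set. For 10 of the 11 all of these had the same direction in Hep3B, with CD59 the exception, and for 7 of the 11 they did in Huh7, with CD46, F5, MASP1 and TFPI the exceptions. All 3 CLU probe sets were higher with ATO in Huh7, at ratios between 1.91 and 2.08, and lower in Hep3B, between 0.539 and 0.703. The second CFI probe set was at 1.65 in Huh7 and 0.506 in Hep3B. For CD55, the other probe sets were at 1.10 and 1.14 in Huh7 and at 1.15 and 2.59 in Hep3B, so they were higher with ATO in both lines but passed 1.5 once. PLAUR's second probe set gave 1.38 in Huh7 and 1.37 in Hep3B. The other CD46 probe sets had Hep3B ratios of 0.817 and 0.785, so only the brightest, at 0.660, was below 0.67.

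**Figure D3:**
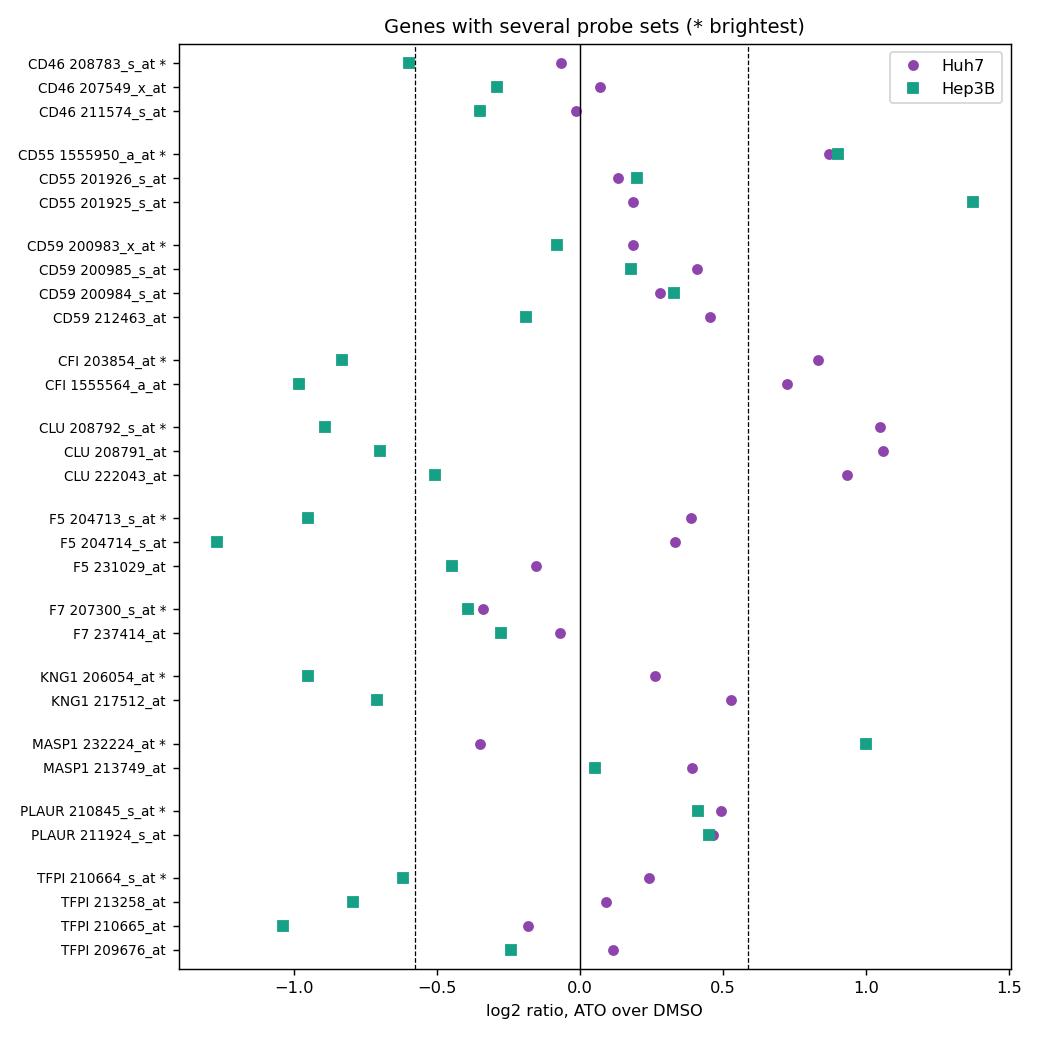
Log2 ratio of ATO over DMSO for every probe set above the median probe set of the 11 genes with more than 1, with Huh7 as circles and Hep3B as squares, an asterisk at the brightest probe set and dashed lines at ratios of 1.5 and 0.67. The CLU and CFI circles all lie right of 0 and their squares left of it, and the squares of MASP1 lie far apart.

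The treatment effect common to both lines was tested with limma on log2(intensity + 16), with cell line in the model and Benjamini-Hochberg adjustment over the 19775 genes. At an adjusted p of 0.05, 0 members and 0 of all genes (0%) passed, and the smallest adjusted p was 0.506. The fit had 1 residual degree of freedom, and an exact permutation of 2 profiles against 2 cannot give a two-sided p under 0.333. At an unadjusted p of 0.05, 7 of 44 members passed in limma, against 9.54% of all genes. CD55 and PLAUR were higher, and A2M, CPB2, F7, PROZ and SERPINF2 lower. CPB2 had a log2 change of -1.16 ± 0.08 (SE, n = 2 lines, limma adjusted p = 0.506), A2M one of -0.61 ± 0.08 and PROZ one of -0.56 ± 0.07. These SEs are moderated by limma and follow the offset of 16, so they understate the spread between the lines for CPB2. Without the offset its log2 ratio was -1.63 in Huh7 and -1.11 in Hep3B. With an intensity trend in the prior variance, limma called 9 genes and 0 members, CPB2 having an adjusted p of 0.0920. With dim genes left out it called 3 genes and 0 members, and the methods' t-test called 0 genes after adjustment and 1 member at an unadjusted p of 0.05, where 2.84% of all genes passed.

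Between the DMSO profiles most members passed a threshold, and more were lower than higher in Huh7. The ratio of DMSO Huh7 over DMSO Hep3B was below 0.67 for 23 of 44 members, where 15.5% of all genes were, and above 1.5 for 6, where 16.9% of all genes were. Of the complement genes 13 of 20 were below and 2 above, and of the coagulation and fibrinolysis genes 10 of 24 were below and 4 above. The median log2 ratio of the members was -0.77, with 0.04 over all genes, and -1.21 over the 38 members left without dim genes, with 0.03 over all genes. At least 4-fold lower in DMSO Huh7 were 13 members, where 3.17% of all genes were, and at least 8-fold lower were 10 members, where 1.52% of all genes were. With every value below 17.3 set to 17.3, a setting chosen after seeing the data, the counts were 12 members at 4-fold, where 2.43% of all genes were, and 8 at 8-fold, where 1.03% were. The 7 members C4BPA, C4BPB, C6, CD55, KLKB1, MASP1 and MBL2 were dim in both Huh7 profiles and above the median probe set in both Hep3B profiles, a pattern of 2.26% of all genes. The reverse pattern was met by 0 members, where 2.21% of all genes met it. These ratios share the DMSO profiles with the ATO ratios above. Of the 7 measured hepatocyte markers, several were also below 0.67 for DMSO Huh7 over DMSO Hep3B. ALB was at 0.0121, AFP at 0.0257, TTR at 0.0283, APOA1 at 0.247 and TF at 0.526. APOB and SERPINA1 passed neither threshold, with SERPINA1 at 1.26. The lower level in DMSO Huh7 was thus not limited to the members. Whether the gap of the members differs from that of other liver genes was not tested.

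The measured gaps were widest for SERPIND1 and the C4b-binding protein genes. Where DMSO Huh7 was dim the fold is not fixed by the data, and a fold against 17.3, the median probe set, is given as well. SERPIND1, at 16.5 and thus dim in DMSO Huh7 and at 1010 in DMSO Hep3B, was 61.1-fold lower in Huh7 as measured and 58.5-fold against 17.3. C4BPB was at 11.001 with ATO and 14.8 with DMSO in Huh7, and at 565 with ATO and 770 with DMSO in Hep3B. C4BPA was at 12.6 with ATO and 14.0 with DMSO in Huh7, and at 459 with ATO and 589 with DMSO in Hep3B. Both genes were dim in Huh7, and the gap was 51.9-fold as measured and 44.6-fold against 17.3 for C4BPB, and 42.1-fold and 34.1-fold for C4BPA. The pair lies on chromosome 1 with 4.24 kb between them, and CD55 is 177 kb from C4BPA and CD46 391 kb from CD55. CD55 was dim in DMSO Huh7 and 5.29-fold lower there against 17.3, whereas CD46 had a ratio of 0.794. Also dim in DMSO Huh7 were MASP1, C6 and MBL2, at 8.01-fold, 5.23-fold and 2.22-fold lower against 17.3. Among genes above 17.3 in both DMSO profiles, CPB2 was 15.6-fold, CFI 14.6-fold, KNG1 12.2-fold, CLU 8.92-fold and F7 6.18-fold lower in DMSO Huh7. The second MASP1 probe set had a narrower gap, at 32.6 in DMSO Huh7 and 52.8 in DMSO Hep3B.

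The start regions of the genes with the widest gaps, and of their neighbour CD55 and of CFI, are given in the same form, on GRCh38.p14 from RefSeq. They lie at chr22:20773993-20774112 (plus) for SERPIND1, chr1:207088740-207088859 (plus) for C4BPB, chr1:207104113-207104232 (plus) for C4BPA, chr1:207321558-207321677 (plus) for CD55 and chr4:109802000-109802119 (minus) for CFI. Capitals mark an HNF1 match, searched as GTTAATNAT, at -50 to -42 in C4BPA and the match to the antioxidant response element at -116 to -108 in SERPIND1. No capitals are set in C4BPB, CD55 and CFI, which held none of the 6 motifs in the 250 bases searched.
SERPIND1: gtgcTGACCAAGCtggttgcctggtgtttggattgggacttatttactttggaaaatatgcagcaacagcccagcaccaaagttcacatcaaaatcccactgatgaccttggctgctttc
C4BPB: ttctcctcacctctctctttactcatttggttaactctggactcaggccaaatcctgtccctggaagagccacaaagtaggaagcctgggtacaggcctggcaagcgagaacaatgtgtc
C4BPA: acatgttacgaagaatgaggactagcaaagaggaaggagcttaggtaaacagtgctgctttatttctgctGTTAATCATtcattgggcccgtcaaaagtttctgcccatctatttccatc
CD55: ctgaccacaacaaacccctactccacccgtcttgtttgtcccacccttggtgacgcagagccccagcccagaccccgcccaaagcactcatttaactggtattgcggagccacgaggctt
CFI: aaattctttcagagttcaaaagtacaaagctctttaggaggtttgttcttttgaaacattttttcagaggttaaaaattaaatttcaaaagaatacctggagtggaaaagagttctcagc

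The HNF1 letters were found in C4BPA and F13B, 5.56% of the 36 members searched, and in 0.685% of all promoters. In F13B the match overlaps one to TATAAA.

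Higher in DMSO Huh7 were 6 members. A2M had a ratio of 4.95, F3 of 2.67, F12 of 2.51, SERPING1 of 2.49, C8A of 1.99 and TFPI of 1.83. C8A and C8B, which encode chains of the same protein and lie 10.98 kb apart on chromosome 1, differed in this respect, since C8B had a ratio of 1.10. Of the 4 TFPI probe sets brighter than the median probe set, 3 gave the higher intensity in DMSO Huh7. The exception, its second brightest, was at 661 with ATO and 620 with DMSO in Huh7, and at 643 with ATO and 1115 with DMSO in Hep3B, and so was lower in DMSO Huh7 than in DMSO Hep3B.

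Over the ATO and DMSO profiles of each line, limma with treatment in the model called 20 of 44 members between Huh7 and Hep3B at a Benjamini-Hochberg adjusted p of 0.05, where 24.3% of all genes were called. Lower in Huh7 were 16 members, where 12.2% of all genes were lower, and higher were 4, where 12.2% of all genes were higher. Both profiles of a line come from the same line under different treatments, so these p-values measure only the spread between the profiles. C4BPB had a log2 difference of -4.55 ± 0.10 (SE, limma adjusted p = 0.0105), CPB2 of -3.83 ± 0.08 (limma adjusted p = 0.0105) and SERPIND1 of -4.40 ± 0.35 (limma adjusted p = 0.0190). The 4 higher genes were A2M (limma adjusted p = 0.0119), C8A, F12 and F3, with F3 at 0.93 ± 0.12 (limma adjusted p = 0.0339). CLU, at -2.14 ± 0.57, was not called (limma adjusted p = 0.105), nor were SERPING1 at 1.80 ± 0.33 (limma adjusted p = 0.0553) and TFPI at 1.27 ± 0.26 (limma adjusted p = 0.0652).

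Between the ATO profiles the lines were closer for most of the members that were lower in DMSO Huh7. Of the 23 members below 0.67 between DMSO profiles, 18 were nearer 1 between ATO profiles, or 78.3%, where 62.9% of all 3058 genes below 0.67 were. The median ratio of the 23 was 0.270 between ATO profiles and 0.162 between DMSO profiles. The 23 were chosen by the DMSO gap itself, so part of this narrowing comes with the choice. Over all 44 members, 21 were below 0.67 between ATO profiles (15.7% of all genes) and 23 between DMSO profiles (15.5%). Below 0.5 were 20 members between ATO profiles (8.61%) and 19 between DMSO profiles (8.73%). CLU had 0.430 between ATO profiles and 0.112 between DMSO profiles, C1R had 0.765 between ATO profiles and 0.294 between DMSO profiles, and F5 had 0.901 between ATO profiles and 0.356 between DMSO profiles. F2 and C3 were above 1 between ATO profiles, at 1.24 and 1.18, and below 1 between DMSO profiles, at 0.582 and 0.587. By its brightest probe set, dim in Huh7, MASP1 had a wider gap with ATO, at 0.0367 between ATO profiles and 0.0935 between DMSO profiles. By the second MASP1 probe set the gap was narrower with ATO, at 0.780 between ATO profiles and 0.617 between DMSO profiles. In the other direction, the gap was wider with ATO for SERPING1, at 5.82 between ATO profiles and 2.49 between DMSO profiles. For C4BPB the gap stayed near the same value, with 0.0195 between ATO profiles and 0.0193 between DMSO profiles. The brightest CD55 probe set had 0.0773 between ATO profiles and 0.0792 between DMSO profiles. Both genes were dim in Huh7, so the size of these gaps is not fixed by the data. The other CD55 probe sets, also dim in Huh7, had 0.135 and 0.0990 between ATO profiles, and 0.142 and 0.226 between DMSO profiles.

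**Figure D4:**
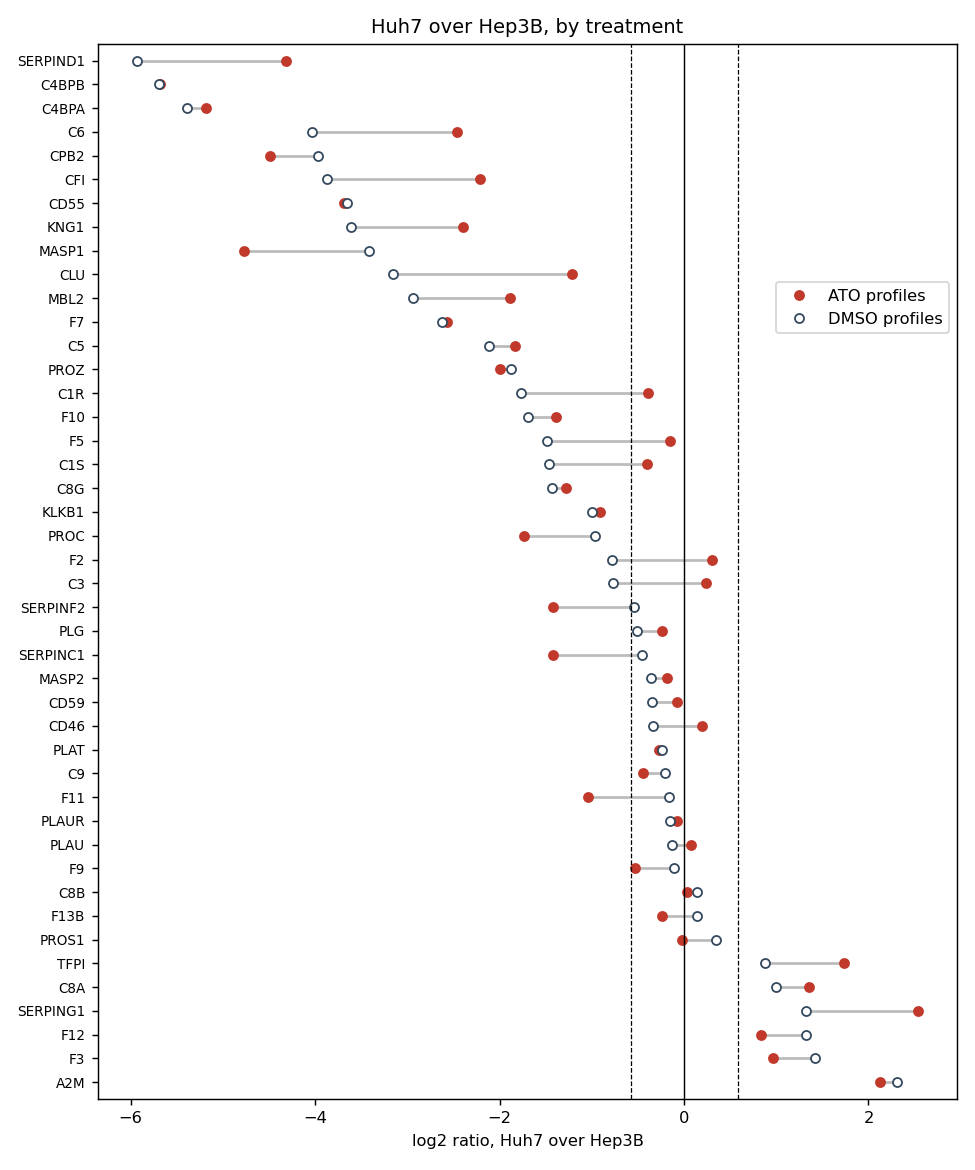
Log2 ratio of Huh7 over Hep3B for each measured gene, with ATO profiles as filled and DMSO profiles as open points, in the order of the DMSO ratio; dashed lines mark ratios of 1.5 and 0.67. SERPIND1, C4BPB and C4BPA have the lowest DMSO ratios and A2M the highest, and the filled points of CLU, C1R, F5 and CFI lie well to the right of their open points.

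Further genes of the same pathways were read from lists of pathway members. Of 18 measured further coagulation and fibrinolysis genes, 3 were above 1.5 and 2 below 0.67 in Huh7, and 2 above and 3 below in Hep3B. The shares of all genes were 3.21% above and 3.25% below in Huh7, and 5.04% above and 4.02% below in Hep3B. None passed a threshold the same way in each line. FGA, the fibrinogen alpha chain, passed in opposite directions in the lines and was at 1922 with ATO and 3008 with DMSO in Huh7, and at 1403 with ATO and 461 with DMSO in Hep3B, with a Huh7 ratio of 0.639 and a Hep3B ratio of 3.04. FGB, the beta chain, had Huh7 and Hep3B ratios of 0.752 and 2.82. SERPINA5, the protein C inhibitor, passed in the other directions, with 1.89 in Huh7, where it was dim with DMSO, and 0.640 in Hep3B, and SERPINE2, a serpin against thrombin and plasminogen activators, had 1.74 in Huh7 and 0.692 in Hep3B. HABP2, a plasma protease that binds hyaluronan, had 0.888 in Huh7 and 0.482 in Hep3B. Among 7 genes of the vitamin K cycle and factor secretion, NQO1, a quinone reductase, was above 1.5 in both lines, at 2.35 in Huh7 and 1.87 in Hep3B. Of 25 measured further complement genes, 17 were dim, 3 were below 0.67 in Huh7 and 3 in Hep3B, where 3.25% and 4.02% of all genes were. None was above 1.5, where 3.21% of all genes were in Huh7 and 5.04% in Hep3B. CFB, which encodes factor B of the alternative pathway, was at 58.9 with ATO and 163 with DMSO in Hep3B, a ratio of 0.361, and was dim in Huh7. CFHR2, dim and read by a probe set of the same class as that of CD59, was below 0.67 in both lines, at 0.626 in Huh7 and 0.605 in Hep3B. Of the further coagulation and fibrinolysis genes that passed a threshold between the DMSO profiles, most were higher in Huh7, unlike most such members. Among all genes, 16.9% were above 1.5 and 15.5% below 0.67. DMSO Huh7 over DMSO Hep3B was 6.52 for FGA, 4.83 for FGB and 2.61 for FGG. F8 had 6.16, with Hep3B dim, HABP2 5.80, S100A10 3.03 and ANXA2 1.98. Below 0.67 were SERPINE2 at 0.293 and SERPINA5 at 0.0115, and the others passed neither threshold. Of the further complement genes, C2 at 0.0865, CFB at 0.0452, CFD at 0.649 and CFHR2 at 0.549 were below 0.67. COLEC11 at 2.05 and CPN1 at 1.62 were above 1.5.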

How the data were processed

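Gene expression was measured in 2 HCC lines on Affymetrix Human Genome U133 Plus 2.0 arrays. Per their methods, the authors preprocessed the arrays by Robust Multi-array Average, took logs and normalized between arrays in simpleaffy. The values as deposited are linear intensity units, and the step that undid the logs is not given in the sources used here. Nor do these say if each column stands for a single array or an average. Of 54675 probe sets, 41097 had 1 gene symbol in GEO's platform annotation, 1801 several and 11777 none. The members and gene lists were chosen with earlier results of these data known. Values in all profiles were given for members past a threshold in both lines or in opposite directions, for the 12 with the largest absolute mean log2 ratio, for the 12 with the widest DMSO gap, and for partners and neighbours of these. TFPI, F5, C1R, C3 and CD46 were given as such partners or after their values were seen. HABP2, FGA, FGB and CFB were among the farthest of their lists by mean log2 ratio, as were TFPI2, CPN1 and C1RL. TFPI2, which was dim, had 2.34 in Huh7 and 0.989 in Hep3B. CPN1 had 0.717 in Huh7 and 0.611 in Hep3B, and C1RL 0.571 in Huh7 and 0.869 in Hep3B. SERPINA5 and SERPINE2 were not among the farthest and were given outside this rule. Ratios were taken from intensities without an offset. Across lines, limma 3.58.1 in R 4.3.3 was fitted to log2(intensity + 16), which understates changes of dim genes, and its prior had 1.81 degrees of freedom. Figures and summaries used Python 3.11.15, pandas 2.3.3 and numpy 2.4.6. The steps were tested on simulated data, where recovery by limma was required only at the lower noise level. That test does not show how limma performs at the noise of these data. Promoters were RefSeq sequences, searched over 250 bases before the start for 36 of 45 members, with a start inside the listed gene for KLKB1 and PLAU. Alternatives covered the choice of probe set, dim genes, normalization, thresholds, offsets, the model and each line alone. The number of profiles, 1 per line and treatment, limits the precision.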

Additional observations from a re-analysis of the deposited data

Results flagged for a closer look

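For 3 genes the profiles moved in opposite directions in the lines, higher with ATO in Huh7 and lower with ATO in Hep3B. The log2 ratio in Huh7 minus that in Hep3B was 1.94 for CLU, 1.66 for CFI and 1.57 for C6. With 1 profile per line and treatment the difference was not tested. C6 was dim in both Huh7 profiles, while every CLU and CFI probe set above the median probe set had these directions.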

How the results depend on the processing

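Of the 7 alternatives for the ratio, 4 or 5 could alter the call of each of the 8 genes past a threshold in both lines or in opposite directions. CPB2 kept its call under 4 of 4, CFI and CLU under 4 of 5, PROZ, SERPINF2 and C6 under 2 of 4, and CD55 and SERPINC1 under 2 of 5. Shares of all genes stand in parentheses. Thresholds of 2 and 0.5 left 3 members above (0.779%) and 2 below (0.470%) in Huh7, 1 above (1.31%) and 3 below (0.910%) in Hep3B, 0 above (0.202%) and 1 below (0.0759%) in both lines, and 0 with opposite directions (0.0202%). An offset of 16 before the ratio left 5 above in Huh7 (1.497%), and 0 above (0.485%) and 1 below (0.334%) in both lines. The mean over probe sets left 3 below in Huh7 (1.99%), 2 above in Hep3B (3.41%) and 0 above in both lines (0.546%). With a single line, counts were between 4 and 9 above and between 5 and 13 below. Between the lines, limma called 20 members, 10 with an offset of 64, and the unpaired t-test 0 after adjustment. Over all genes, limma called 4806, 2518 with an offset of 64, and the unpaired t-test 14. With cell line in the model, ATO and DMSO were paired within a line. Without it, limma again called 0 genes, and 334 genes rather than 1886 had an unadjusted p under 0.05. Of the counts recomputed under these settings, 68 stayed within 1.5 times the reported count and 19 did not. This tally includes settings with little or no room to move a count. Leaving out dim genes removed 6 members, none of them past a ratio threshold. Leaving out probe sets of the class that reads CD59 touched 1 member. The limma count of members for ATO against DMSO was 0 in every setting. In Huh7, where neither passed a threshold, the log2 ratio of MASP1 was -0.35 and 0.39 by its second probe set, and that of F11 was 0.06 and -0.09 by the mean of probe sets. Dim probe sets limit the Huh7 values of CD55, C6, MBL2, MASP1, C4BPA and C4BPB.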
